A study of Homo sapiens with 6 samples.

Results

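GRB2 and 9 proteins that dock with it were examined as mRNA in SK-BR-3 cells, an established HER2-overexpressing breast cancer line. The members were chosen by symbol, as GRB2, SHC1, GAB1, GAB2, SOS1, SOS2, PTPN11, CBL, IRS1 and FRS2. All 10 were found once in the count table of 30327 genes and once in the FPKM table of 29912 genes (reads scaled for gene length and library size), and all 10 had enough reads to test. Poly(A) RNA was sequenced in 6 libraries of one line, all from siRNA-treated cells by their descriptions. In 3 libraries, described as si_NC, the cells were given a nontargeting siRNA, and in the other 3, described as si_GRB2, an siRNA against GRB2. The titles and genotype labels of the si_GRB2 libraries, and the design text, instead name GRB2 overexpression, with a plasmid in the design text. The descriptions were followed, and the level of GRB2 itself is given first as a check of them. The methods print 1 siRNA sequence against GRB2, and the supplement lists RNA from cells given 3 different ones. Which of these entered the libraries is not given in the sources used here.

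GRB2 is an adaptor with no enzyme activity. Its SH2 domain binds phosphorylated tyrosines on activated receptors such as HER2, or on docking proteins that stand between receptor and adaptor, and its SH3 domains hold proline-rich partners. Through SOS proteins it brings the RAS exchange reaction to the membrane, through GAB proteins it recruits PI3-kinase and the phosphatase SHP2, and through CBL it links receptors to ubiquitination. SHC1, FRS2 and IRS1 carry tyrosines for its SH2 domain.

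GRB2 (ENSG00000177885.15) is transcribed from the minus strand of chromosome 17 (GRCh38, 75318076 to 75405709), and the reads of its 12 annotated transcripts are summed in one value. The primer pair with which the study measured GRB2 mRNA by RT-PCR is shown because it marks where on this gene a second assay was placed. Both primers lie in the coding sequence and enclose 182 bases of the 3273-base reference transcript. The forward primer covers chr17:75325898-75325910 in exon 4 and, in capitals, chr17:75321819-75321827 in exon 5, on the minus strand. The reverse primer lies in exon 5, at chr17:75321659-75321679, and reads the plus strand.
GRB2 forward primer: ccctctctgtcaaGTTTGGAAA
GRB2 reverse primer: ctgtggcacctgttctatgtc
The forward primer matched 6 of the 12 transcripts and the reverse primer 8 of them, whereas the deposited values do not separate transcripts. The RT-PCR measurements themselves were not used here.

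Each library had 24810378 to 28532480 reads on genes, of which 10510 to 14436 belonged to the 10 members. The 7 markers of the line (ERBB2, GRB7, STARD3, KRT8, KRT18, KRT19 and EPCAM) were abundant, and they summed to 3282 to 3643 FPKM in si_NC and to 2822 to 2942 FPKM in si_GRB2. Of these, 6 were lower in si_GRB2 in FPKM with no overlap between the groups, such as KRT18 (976 to 1096 and 717 to 746 FPKM) and EPCAM (63.7 to 69.6 and 44.4 to 48.0 FPKM), and ERBB2 was higher (263 to 286 and 323 to 347 FPKM). In counts scaled by library, 42.3% of all 15801 tested genes had no overlap between the groups, and the share in FPKM was not counted. The part of the markers in the results below was not tested. Of 8 markers of leukocytes, fibroblasts and endothelium, 6 were listed, and together they summed to 1.04 to 1.11 FPKM in si_NC and to 0.87 to 0.89 FPKM in si_GRB2. PTPRC and PECAM1 were not listed, VIM was at 0.04 FPKM or less, and ESR1 was at 0.09 FPKM or less. The normalization factors (TMM, edgeR) ran from 0.976 to 0.988 in si_NC and from 1.015 to 1.02 in si_GRB2, so scaling moved with the groups. Nothing in the labels says that replicates were separate cultures, and the p-values measure the spread between these libraries, which may be technical.

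GRB2 was much lower in the libraries described as si_GRB2 and was, in si_NC, the most abundant of the 10 transcripts in FPKM. It had 3474, 3301 and 3525 reads in the si_NC libraries and 699, 773 and 749 in the si_GRB2 libraries. In CPM, counts scaled to library size with TMM factors, 22.6% of the si_NC level was left (95% interval 21.3% to 23.9%), a log2 fold change of −2.15 (standard error, SE, 0.04, adjusted p = 3.87e-15 from the quasi-likelihood F test of edgeR, on which all edgeR values below rest). The groups did not overlap, and the direction goes against the labels that name overexpression. GRB2 had the smallest p of the 15801 genes tested, and among the 10624 genes with a mean of at least 5 CPM only 1 gene fell further on the log2 scale. In bulk RNA, fewer cells with the transcript and less transcript per cell cannot be told apart.

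The genes whose pattern over the 6 libraries was most like that of GRB2 were CENPW, TMEM50A, PSCA, CCL2 and S100A10. Likeness was measured as the root-mean-square distance in log2 CPM, each gene taken relative to its own si_NC mean, so that it follows mainly the size of the fall. CENPW, a centromere protein, was nearest, with a distance of 0.0646 log2 units, and it was the gene that fell further than GRB2, from 19.7 ± 1.51 to 4.23 ± 0.173 CPM (SD, n = 3). TMEM50A, a small membrane protein, lay at 0.225, PSCA, a surface antigen, at 0.377, CCL2, a chemokine, at 0.385 and S100A10, the partner of annexin A2, at 0.455. IRS1 was the nearest of the docking partners and stood at place 138 of 10623 genes, with a distance of 1.08. The next partner, SHC1, stood at place 2795.

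**Figure D1:**
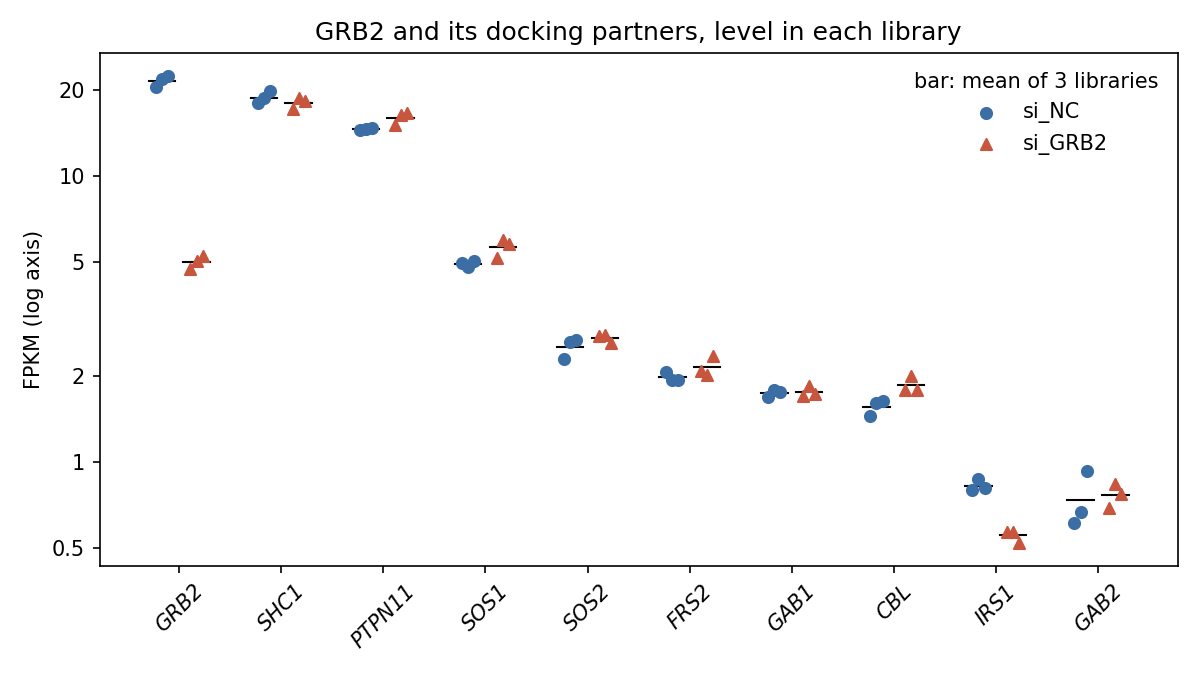
FPKM (log axis) of the 10 genes in each library, ordered by the si_NC mean, with circles for si_NC, triangles for si_GRB2 and a bar at the mean of 3 libraries. GRB2 moved from the top of the order, at 20.5 to 22.3 FPKM, to 4.72 to 5.24 FPKM, where its range overlaps that of SOS1, and IRS1 moved from 0.80 to 0.87 FPKM down to 0.52 to 0.57 FPKM.

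In the deposited FPKM, the 10 transcripts spanned more than an order of magnitude, with 3 of them well above the rest. In si_NC the order was GRB2 at 21.5 ± 0.946 FPKM, SHC1 at 18.8 ± 0.936, PTPN11 at 14.6 ± 0.0971, SOS1 at 4.93 ± 0.108, SOS2 at 2.53 ± 0.206, FRS2 at 1.98 ± 0.0723, GAB1 at 1.74 ± 0.0503, CBL at 1.56 ± 0.0964, IRS1 at 0.827 ± 0.0379 and GAB2 at 0.737 ± 0.17 FPKM (SD, n = 3 each). Each neighbour in this order was separated from the next in all 3 libraries, except IRS1 and GAB2, whose ranges overlapped. In si_GRB2, SHC1 was the most abundant, at 18.0 ± 0.793 FPKM, followed by PTPN11 at 15.97 ± 0.838, SOS1 at 5.64 ± 0.41 and GRB2 at 5.0 ± 0.263 FPKM (SD, n = 3 each). The ranges of SOS1 (5.18 to 5.96 FPKM) and GRB2 (4.72 to 5.24 FPKM) overlapped there, as did those of CBL and GAB1. IRS1, at 0.52 to 0.57 FPKM, then lay below GAB2, at 0.69 to 0.84 FPKM, with no overlap. Count and FPKM, with the reads on genes as library total, gave 0.513 of the GENCODE 44 exon union for SOS1 and 0.638 for PTPN11. The other 8 genes had 1.22 to 1.23. The library totals behind the FPKM differ from the reads on genes, so these values compare genes and are not the gene lengths themselves. The place of SOS1 depends on the length taken, against SOS2 in both groups and against GRB2 in si_GRB2. PTPN11 stayed below SHC1 in both groups, and above GRB2 in si_GRB2, also per base of the reference transcript or the exon union. Pairs without SOS1 or PTPN11 were not recomputed with other lengths, so their order is that of the deposited FPKM only.

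With GRB2 as the reference, every partner gained on it, which follows from the fall of GRB2 and is given as a description. SHC1 had 0.872 ± 0.0169 FPKM per FPKM of GRB2 in si_NC and 3.61 ± 0.121 in si_GRB2 (SD, n = 3). PTPN11 went from 0.677 ± 0.0265 to 3.19 ± 0.0364, and SOS1 from 0.229 ± 0.0116 to 1.13 ± 0.0458 (SD, n = 3 each). In FPKM, GRB2 thus exceeded each partner in every si_NC library, and was exceeded by SHC1, PTPN11 and SOS1 in every si_GRB2 library. With reads per base of the GENCODE 44 reference transcript, SOS1 instead stayed below GRB2 in si_GRB2 (0.847 ± 0.0349), as it did per base of the exon union (0.473 ± 0.0195), while PTPN11 stayed above it (2.56 ± 0.03 and 1.67 ± 0.0195, SD, n = 3 each). The remaining partners stayed below GRB2 in both groups, from 0.543 ± 0.0445 for SOS2 down to 0.111 ± 0.0109 for IRS1 in si_GRB2 (SD, n = 3). IRS1 gained least, from 0.0384 ± 0.00183.

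Of the 9 partners, 4 changed with an adjusted p under 0.05 (edgeR, adjusted over all 15801 genes), IRS1 and SHC1 downward and SOS1 and CBL upward. The background was as follows. Of all tested genes, 30.6% changed at this limit, 15.2% upward and 15.5% downward, so that 4 of 9 is a share near the background. In CPM, the groups did not overlap in 5 of the 9 partners (these 4 and PTPN11), against 42.3% of all tested genes. In the deposited FPKM, the groups of SHC1 did overlap (17.9 to 19.8 FPKM in si_NC and 17.2 to 18.7 FPKM in si_GRB2). The fold limit of the study (above 1.5-fold up or down, here with an adjusted p under 0.01) was passed by 1 partner, IRS1, and by 2.52% of all tested genes, 0.829% upward and 1.69% downward. With limma on log2 FPKM, 0 of the 9 partners had an adjusted p under 0.05, beside 1400 (pseudocount 1) and 1534 (pseudocount 0.1) of all 29912 genes. At so low a share, 0 of 9 does not set the partners apart. Of the partners, 4 (IRS1, SOS1, CBL and PTPN11) had an unadjusted p under 0.05 with either pseudocount. In edgeR the count of 4 became 2 without si_NC replicate 2 (CBL and IRS1), without si_GRB2 replicate 2 (SHC1 and IRS1) and without si_GRB2 replicate 3 (CBL and IRS1). The median log2 fold change was 0.06 over the partners and 0.0019 over all tested genes, and the median size of change without sign was 0.0879 and 0.142. The share of upward calls over all genes depended on scaling, at 49.5% with TMM and 66.5% with library totals alone, which put the median of all genes at 0.05 (log2).

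**Figure D2:**
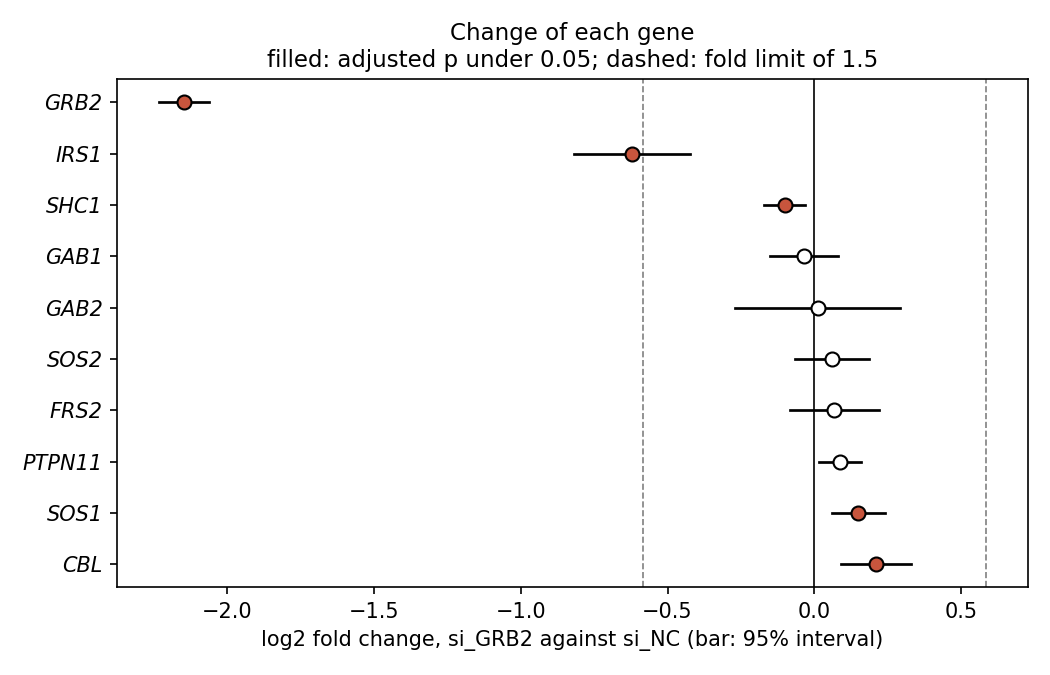
Log2 fold change of each gene in si_GRB2 against si_NC with its 95% interval, filled where the adjusted p was under 0.05, with dashed lines at the fold limit of 1.5. GRB2 (−2.15) and IRS1 (−0.62) lie beyond the lower limit, and the other 8 genes lie between −0.10 and 0.21.

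Among the docking proteins that carry tyrosines for GRB2, IRS1 fell to 65.0% of its si_NC level, SHC1 fell slightly and FRS2 did not pass the test. IRS1 (ENSG00000169047.6, minus strand of chromosome 2 from 226731312 to 226799820) is the substrate through which insulin and IGF1 receptors engage PI3-kinase and GRB2. It had 10.3, 10.9 and 9.77 CPM in si_NC and 7.07, 6.77 and 6.28 CPM in si_GRB2. Every si_GRB2 library was thus lower than every si_NC library. The 95% interval of the level left was 56.7% to 74.6%, and the log2 fold change −0.62 (SE 0.09, edgeR adjusted p = 8.97e-05). The value rests on 1364 reads over the 6 libraries, and no annotated gene overlaps IRS1. It stayed under an adjusted p of 0.05 in all 13 alternatives on counts, but lost the fold limit without si_GRB2 replicate 3 (log2 fold change −0.576) and with library totals alone (−0.57). On the rounded FPKM, limma gave −0.50 (adjusted p = 0.0506) with a pseudocount of 0.1 and −0.23 (adjusted p = 0.0556) with a pseudocount of 1, which understates the change of a gene at this level.

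SHC1 (ENSG00000160691.19, minus strand of chromosome 1 from 154962298 to 154974395) encodes the adaptor that binds activated ERBB receptors and, once phosphorylated, GRB2. It had 99.8, 101.8 and 102.7 CPM in si_NC and 93.0, 96.1 and 94.5 CPM in si_GRB2. The groups lay close together without overlapping. The log2 fold change was −0.10 (SE 0.03, edgeR adjusted p = 0.0286), with 93.2% left (95% interval 88.8% to 97.9%). This call was lost with DESeq2 (adjusted p = 0.0572) and with library totals alone (adjusted p = 0.276). It was also lost in edgeR without si_NC replicate 2 (adjusted p = 0.0639), si_NC replicate 3 (0.0579), si_GRB2 replicate 1 (0.0901) or si_GRB2 replicate 3 (0.0619). PYGO2, on the same strand with overlapping exons, had 12347 reads against 15646 of SHC1 and a log2 fold change of 0.15 (edgeR adjusted p = 0.00795). A lncRNA on the opposite strand, also with exons overlapping SHC1, had 798 reads over the 6 libraries. How reads in the shared bases were assigned is not given in the sources used here, and the part of these overlaps in the result was not tested. FRS2 (ENSG00000166225.9, plus strand of chromosome 12 from 69470349 to 69579793), the membrane-anchored substrate of FGF receptors, had 19.2, 17.6 and 16.8 CPM in si_NC and 18.8, 17.2 and 20.3 CPM in si_GRB2. Its groups overlapped, with a log2 fold change of 0.07 (95% interval −0.08 to 0.22, edgeR adjusted p = 0.536).

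GAB1 and GAB2, the scaffolds that bind GRB2's SH3 domains and recruit SHP2 and PI3-kinase, did not pass the test. GAB1 (ENSG00000109458.8, plus strand of chromosome 4 from 143336876 to 143474565) had 22.0, 22.8 and 21.2 CPM in si_NC and 21.5, 22.0 and 20.8 CPM in si_GRB2. The groups overlapped, with a log2 fold change of −0.04 (95% interval −0.15 to 0.08, edgeR adjusted p = 0.676), and the sign turned with library totals alone (0.01). GAB2 (ENSG00000033327.13, minus strand of chromosome 11 from 78215293 to 78418348) had 5.31, 5.73 and 7.56 CPM in si_NC and 5.80, 6.70 and 6.24 CPM in si_GRB2. The library si_NC replicate 3 was the highest of all 6, and the si_GRB2 libraries lay within the si_NC range. GAB2 had the fewest reads of the 10 genes, 995 over the 6 libraries, and the widest interval, from −0.27 to 0.29 around a log2 fold change of 0.01 (edgeR adjusted p = 0.966). The sign of GAB2 depended on single libraries, at 0.18 without si_NC replicate 3 and −0.10 without si_NC replicate 1. An antisense lncRNA with exons overlapping GAB2 had 112 reads over the 6 libraries. The log2 ratio of GAB1 to GAB2 in FPKM was 1.27 ± 0.308 in si_NC and 1.20 ± 0.0909 in si_GRB2 (SD, n = 3), a difference within the spread of the libraries (two-sided exact permutation test, p = 0.8, where 3 against 3 libraries allow no p below 0.1). Its difference of −0.07 became −0.247 without si_NC replicate 3, and its sign turned without si_NC replicate 1 (0.0323) or si_NC replicate 2 (0.0061).

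**Figure D3:**
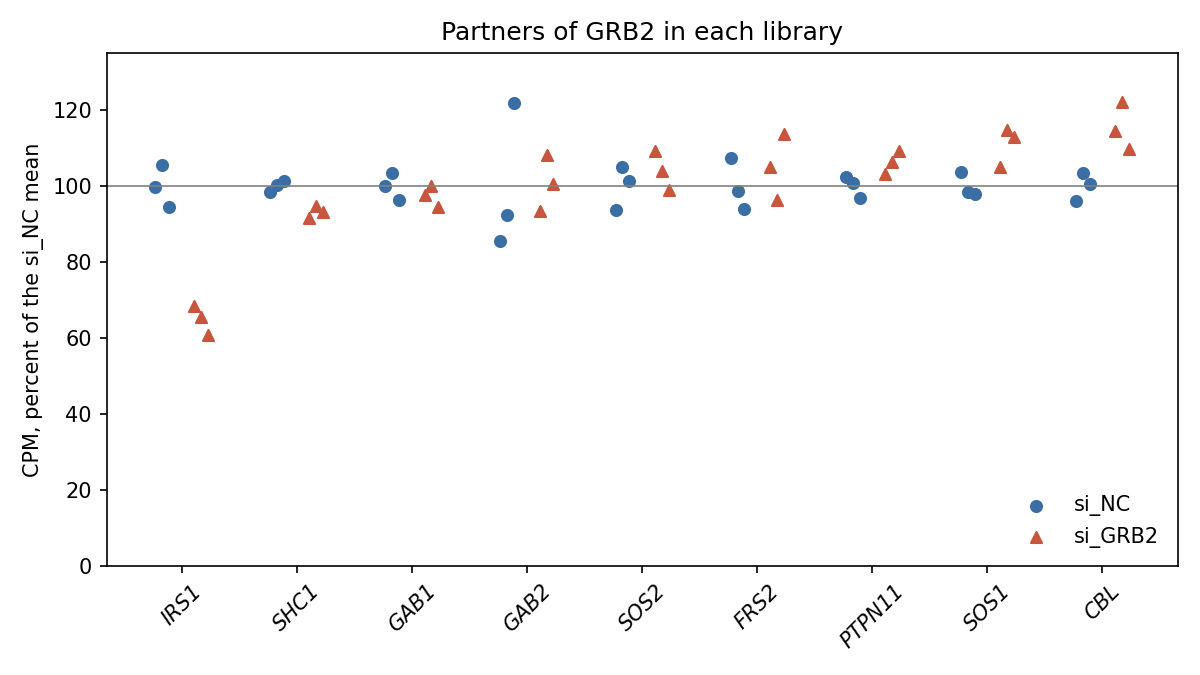
CPM of each partner in each library as percent of its si_NC mean, with circles for si_NC and triangles for si_GRB2, ordered by log2 fold change. The 3 si_GRB2 libraries of IRS1 lie apart from its si_NC libraries, those of SHC1, PTPN11, SOS1 and CBL lie just outside the si_NC range, and the groups of the other 4 partners overlap.

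Of the remaining partners, SOS1 and CBL rose, to 110.9% and 116% of si_NC, and SOS2 and PTPN11 did not pass the test. SOS1 (ENSG00000115904.14, minus strand of chromosome 2 from 38962206 to 39124345), an exchange factor that loads RAS with GTP, had 61.4, 58.3 and 57.9 CPM in si_NC and 62.3, 68.0 and 66.8 CPM in si_GRB2. The lowest si_GRB2 library was just above the highest si_NC library. A lncRNA on the same strand, with exons overlapping SOS1, had 468 reads over the 6 libraries against 9959 of SOS1, and its part in the result was not tested. The log2 fold change of SOS1 was 0.15 (SE 0.04, edgeR adjusted p = 0.0138), or 110.9% of si_NC (95% interval 104% to 118%). The call was lost in edgeR without si_NC replicate 2 (adjusted p = 0.0671), si_GRB2 replicate 2 (0.0821) or si_GRB2 replicate 3 (0.0548). SOS2 (ENSG00000100485.12, minus strand of chromosome 14 from 50117130 to 50231578), its paralog with the same reaction, had 20.5, 23.0 and 22.1 CPM in si_NC and 23.9, 22.8 and 21.6 CPM in si_GRB2. Its groups overlapped, with a log2 fold change of 0.06 (95% interval −0.07 to 0.19, edgeR adjusted p = 0.514). A difference between the paralogs was not shown. The log2 ratio of SOS1 to SOS2 in FPKM was 0.967 ± 0.13 in si_NC and 1.06 ± 0.131 in si_GRB2 (SD, n = 3), with p = 0.5 in the two-sided exact permutation test. In FPKM, SOS1 had 1.96 ± 0.18 times the level of SOS2 in si_NC and 2.09 ± 0.184 times in si_GRB2. Per base of the reference transcripts the ratio was 1.68 ± 0.153 and 1.79 ± 0.156, and per base of the exon unions 0.822 ± 0.0748 and 0.875 ± 0.0765 (SD, n = 3 each), so which paralog had more mRNA depends on the length taken. The comparison between groups does not use the length. The difference of 0.09 between the groups varied from 0.0395 without si_GRB2 replicate 3 and 0.0406 without si_NC replicate 2 to 0.163 without si_GRB2 replicate 1 or si_NC replicate 1.

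CBL (ENSG00000110395.7, plus strand of chromosome 11 from 119206298 to 119313926), the ubiquitin ligase that marks activated receptors for degradation, had 21.8, 23.5 and 22.9 CPM in si_NC and 26.03, 27.7 and 24.97 CPM in si_GRB2. All si_GRB2 libraries were higher than all si_NC libraries. The log2 fold change was 0.21 (SE 0.06, edgeR adjusted p = 0.00859), the largest rise among the partners, at 116% of si_NC (95% interval 107% to 126%). The call was lost in edgeR without si_NC replicate 1 (adjusted p = 0.0505) or si_GRB2 replicate 2 (0.0617). MCAM, on the opposite strand with overlapping exons, had reads equal to 17.6% of those of CBL and a log2 fold change of −0.66 (edgeR adjusted p = 0.00139), opposite in sign to CBL. PTPN11 (ENSG00000179295.18, plus strand of chromosome 12 from 112418351 to 112509918) encodes SHP2, the phosphatase that GAB proteins and GRB2 bind. It had 130.6, 128 and 123 CPM in si_NC and 132, 136 and 139 CPM in si_GRB2. The groups were separated by less than 1 CPM, and the log2 fold change of 0.09 (95% interval 0.02 to 0.16) missed the limit (edgeR adjusted p = 0.0612). It passed the limit with library totals alone (adjusted p = 0.0051) and without si_GRB2 replicate 1 (adjusted p = 0.0398). RPL6, a ribosomal protein gene on the opposite strand with exons overlapping PTPN11, had 243041 reads against 20960 of PTPN11 and a log2 fold change of −0.08 (edgeR adjusted p = 0.00947). The libraries were made strand-specific, but whether the counting used strand is not given in the sources used here.

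The relatives of GRB2 and of its partners were mostly near or under detection in this line. GRAP, an adaptor with the same order of domains as GRB2, had 7 reads over all 6 libraries, and GRAP2 was not listed. IRS2 had 48 reads and IRS4 had 2, against 1364 of IRS1. SHC3, SHC4 and GAB3 had 6, 11 and 1 reads, and SHC2 was not listed. Of 12 such family members, 4 had enough reads to test, and 2 of these fell, with a median log2 fold change of −0.14 (15.5% of all tested genes fell). PTPN6, which encodes the phosphatase SHP1, was lower in si_GRB2 (41.1 ± 0.605 and 37.4 ± 1.48 CPM, SD, n = 3, log2 fold change −0.13, adjusted p = 0.03), as was CBLC, an epithelial relative of CBL (21.0 ± 0.99 and 18.5 ± 1.16 CPM, SD, n = 3, log2 fold change −0.18, adjusted p = 0.0377, both from edgeR). CBLC thus fell where CBL rose in this fit. Calls in this list and in the lists below rest on this fit alone, as other settings were not examined for their genes. CBLB (log2 fold change −0.01) and FRS3 (−0.14) did not pass.

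**Figure D4:**
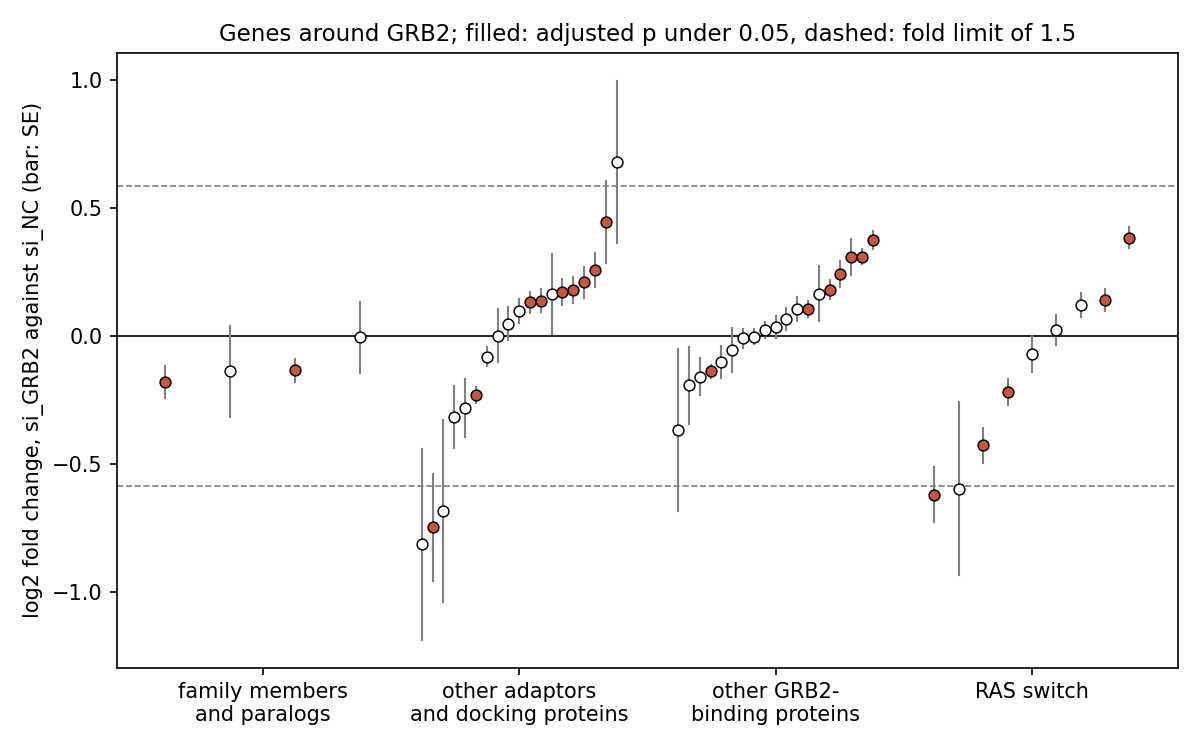
Log2 fold change with its standard error for the tested genes of 4 lists, sorted within each list, filled where the adjusted p was under 0.05, with dashed lines at the fold limit of 1.5. Most genes lie between the dashed lines, and SPRED1 (−0.62) is the filled point of the RAS switch list beyond the lower line.

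Among 23 other adaptor and docking proteins of receptor tyrosine kinases, 19 were tested, 7 rose, 2 fell and 10 did not pass, with a median log2 fold change of 0.10, beside 15.2% upward and 15.5% downward calls and a median of 0.0019 over all tested genes. The upward calls included DOK3 (log2 fold change 0.44, adjusted p = 0.0453), a docking protein with few reads here, GRB10 (0.26, adjusted p = 0.00679), an adaptor of the insulin receptor, NCK1 (0.21, adjusted p = 0.0153), which links receptors to actin, and SH2B1 (0.18, adjusted p = 0.0139), an adaptor of the insulin receptor and JAK2 (all from edgeR). The downward calls were DOK1 (−0.75, adjusted p = 0.0118), a docking protein that draws in RAS GTPase activators, and GRB7 (−0.23, adjusted p = 2.58e-05), an adaptor encoded next to ERBB2. DOK1 had 2.02 ± 0.369 CPM in si_NC and 1.21 ± 0.101 CPM in si_GRB2 (SD, n = 3), and its adjusted p missed the 0.01 that goes with the fold limit.

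Among 19 other proteins known to bind GRB2, all were tested, 6 rose, 1 fell and 12 did not pass, with a median log2 fold change of 0.04. Over all tested genes, 30.6% were called, 15.2% upward and 15.5% downward. The share called in this list, in either direction, lay near that background. Its split by direction was not tested, and the upward share of calls over all genes depended on scaling (49.5% with TMM, 66.5% with library totals alone). The largest upward calls were ADAM15, a membrane metalloprotease (189.9 ± 8.98 and 246 ± 6.84 CPM, SD, n = 3, log2 fold change 0.38, adjusted p = 5.84e-07), and DAG1, the dystroglycan precursor (294 ± 8.38 and 365 ± 9.88 CPM, SD, n = 3, log2 fold change 0.31, adjusted p = 8.06e-07, both from edgeR). RALGPS1, an exchange factor for RAL, had a log2 fold change of 0.31 (adjusted p = 0.00282) and RAPGEF1, an exchange factor for RAP1, of 0.24 (adjusted p = 0.00169, both from edgeR). HNRNPC, a nuclear RNA-binding protein, was the one that fell (log2 fold change −0.14, edgeR adjusted p = 0.000514). Members that did not pass included DNM2, the dynamin of endocytosis, at −0.01, and KHDRBS1, the RNA-binding protein SAM68, at −0.0020 (adjusted p = 0.883 and 0.974, edgeR).

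Of 13 genes reported from the RAS switch that SOS proteins act on, 9 were tested, 2 rose, 3 fell and 4 did not pass, with a median log2 fold change of −0.07, beside 15.2% upward and 15.5% downward calls over all tested genes. NRAS rose (log2 fold change 0.14, edgeR adjusted p = 0.0219), as did RASA3, a GTPase activator (0.38, edgeR adjusted p = 1.95e-06). HRAS, at 0.12, missed the limit (edgeR adjusted p = 0.055). SPRED1 and SPRED2, inhibitors of RAS signalling, fell by 0.62 and 0.43 on the log2 scale (adjusted p = 0.000326 and 0.000201), and NF1, the GTPase activator that SPRED proteins bring to the membrane, fell by 0.22 (adjusted p = 0.0038, all from edgeR). SPRED1 passed the fold limit, with 7.50 ± 0.0621 CPM in si_NC and 4.89 ± 0.322 CPM in si_GRB2 (SD, n = 3). The other exchange factors of RAS were scarce, with 8, 32 and 50 reads over 6 libraries for RASGRP1, RASGRP2 and RASGRP3, 88 for RASGRF1 and 13 for RASGRF2, against 9959 for SOS1 and 3555 for SOS2. RASGRF1 was the one of these 5 with enough reads to test (0.66 ± 0.172 CPM in si_NC and 0.435 ± 0.106 CPM in si_GRB2, SD, n = 3) and did not pass (log2 fold change −0.60, edgeR adjusted p = 0.213).

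**Figure D5:**
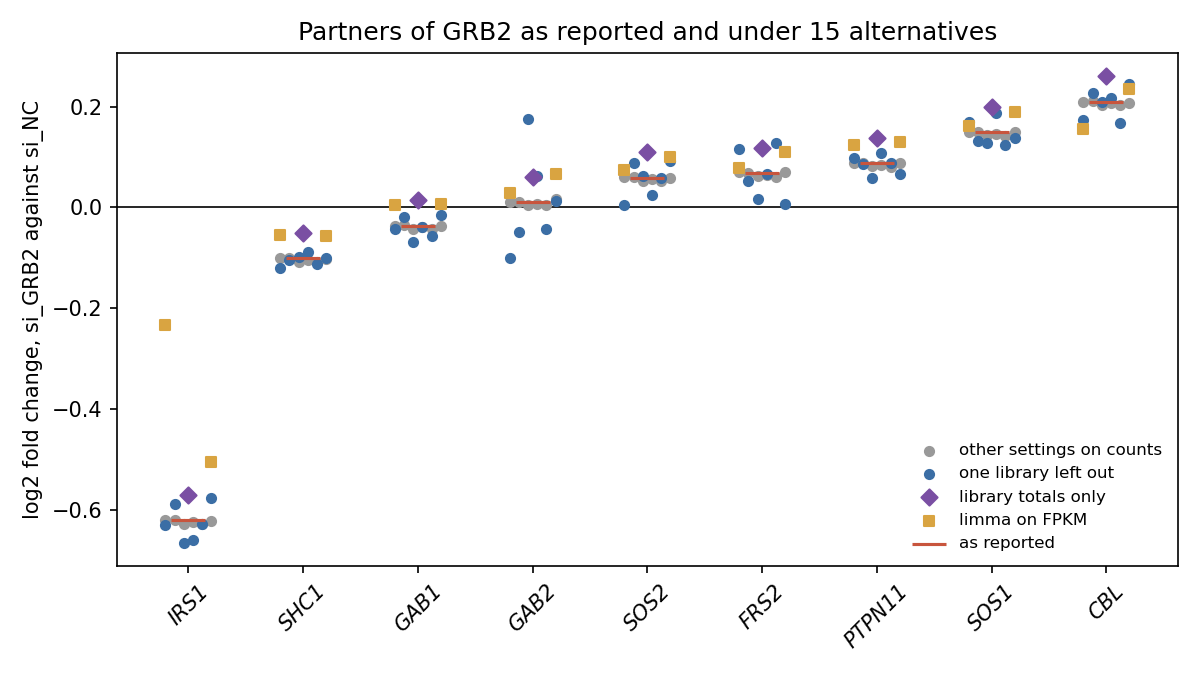
Log2 fold change of each partner as reported (red bar) and under 15 alternatives, with blue circles for fits without one library, a purple diamond for library totals alone, yellow squares for limma on FPKM and grey circles for other settings on counts. IRS1 stays below 0 in all of them, SOS1, CBL, PTPN11, SOS2 and FRS2 stay above 0, SHC1 stays below 0, and the points of GAB1 and GAB2 lie on both sides of 0.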

How the data were processed

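Per the labels and methods, reads were aligned to GRCh38 with HISAT2, and the authors deposited the count of uniquely mapped reads per gene and FPKM computed from them, rounded. The counting tool, strand setting and annotation release are not given in the sources used here. Count-to-FPKM ratios, taken with the reads on genes as library total, had a median of 1.22 times the union of GENCODE 44 exons. The 5th to 95th percentile was 1.07 to 1.22 over 6969 genes, but SOS1 had 0.513 and PTPN11 0.638. The library totals behind the FPKM differ from the reads on genes, so these values hold that difference as well as the gene length.

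Counts were scaled by TMM, filtered with filterByExpr (15801 genes) and compared by edgeR 4.0.16 (R 4.3.3, glmQLFit and glmQLFTest, Benjamini-Hochberg over all tested genes, no covariate). Standard errors are the estimate over the square root of F. Levels between genes use the deposited FPKM, and ratios with SOS1 or PTPN11 were recomputed with GENCODE 44 lengths, chosen after seeing the data. Paralog ratios used an exact permutation test (scipy 1.17.1). DESeq2 1.42.0 and limma 3.58.1 (log2 FPKM plus 1 or 0.1) served as alternatives. The tests were run on simulated data first. Depth was 24810378 to 28532480 reads on genes per library, and genes with few reads have wider intervals.

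The named genes are the 10 members, the genes called in 4 fixed lists (at most the 4 largest in each direction, with those that miss the limit named for contrast) the 5 genes nearest to GRB2 in pattern and ERBB2, by value only. RASGRF1, RPL6, PYGO2 and MCAM were named after their values were seen, the last 3 for their overlap with members. Members and lists were chosen with earlier results of these data known. Gene positions are from GENCODE 44, where GAB1, SOS1, PTPN11 and CBL carry a later identifier version than in the count table. 1 gene of the fixed lists is not reported here and was left out of its list's counts and median. Protein sequences were not used here.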

Additional observations from a re-analysis of the deposited data

How the results depend on the processing

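GRB2 kept its call under all 15 alternatives, with log2 fold changes from −2.17 to −1.91. The number of partners with an adjusted p under 0.05 was 4, ranged from 2 to 4 without single libraries, and was 0 with limma on log2(FPKM + 1) and 0 with log2(FPKM + 0.1), where 4 had an unadjusted p under 0.05. The number past the fold limit was 1, ranged from 0 to 1 without single libraries, and was 0 with library totals alone and 0 with either pseudocount on FPKM. Over all genes, limma on FPKM called 1400 (pseudocount 1) and 1534 (0.1) of 29912 genes, where edgeR called 4838 of 15801. Past the fold limit, limma called 79 and 144 genes in place of 398. The sets of genes tested thus differed as well as the method, and the cause was not tested. Without single libraries, the edgeR counts ran from 3774 to 4420 and from 321 to 420. GAB1 changed sign with library totals alone (0.014) and with limma on FPKM (0.0051 and 0.0074). GAB2 changed sign in 3 fits without single libraries (from −0.0993 to 0.175 over all 6). The difference in the GAB1 to GAB2 ratio ran from −0.247 to 0.0323 and that of SOS1 to SOS2 from 0.0395 to 0.163 without single libraries. With lengths from GENCODE 44, an alternative chosen after seeing the data, the log2 level ratio of SOS1 to SOS2 became −0.287 in si_NC and −0.197 in si_GRB2 per base of the exon union, and that of SOS1 to GRB2 in si_GRB2 became −0.240 per base of the reference transcript and −1.08 per base of the exon union.

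Replicate numbers are shared by the groups, but the deviations of same-numbered libraries did not correlate in every pair (r of 0.232, −0.0948 and 0.0804), so the numbers were not taken as pairs. With the replicate number as a block, 3 partners changed (SOS1, CBL and IRS1, with SHC1 at an adjusted p of 0.0626), GRB2 kept its call, and 4807 genes changed in all. In the same pairing, the paralog ratios differed by 0.0888 (SOS1 to SOS2) and −0.0694 (GAB1 to GAB2). Pairing cannot change these mean differences in groups of equal size, so they say nothing about it.

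Depth limits GAB2 and IRS1 most, with 995 and 1364 reads over 6 libraries.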

Other observations

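ERBB2, the gene of the HER2 receptor that this line overexpresses, was at 3557, 3415 and 3527 CPM in si_NC and at 4202, 4229 and 3988 CPM in si_GRB2, with no overlap between the groups. GRB7, an adaptor encoded beside it, was at 300.7 ± 6.39 CPM in si_NC and 256 ± 8.76 CPM in si_GRB2 (SD, n = 3), and was lower where ERBB2 was higher.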
